A study of Oryza sativa with 6 samples.

Results

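The genes described here encode the rice proteins that read calcium signals and pass them on to other proteins: calcium-dependent protein kinases (CPK), calcineurin B-like calcium sensors (CBL), the kinases that these sensors bind (CIPK) and calmodulin-like proteins (CML). They were chosen by name, as every gene whose symbol or a synonym in the reference gene table was CPK, CDPK, CIPK, CBL or CML followed by digits. The reference table held 89 such genes. Of these, 74 had a probe set that the platform annotation ties to 1 gene only, out of 17905 genes with such a probe set. The 74 were 20 of 24 CPK, 7 of 9 CBL, 24 of 30 CIPK and 23 of 26 CML genes.

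Calcium enters the cytosol of plant cells within moments of a salt or osmotic shock, and the shape of this transient is read by proteins with EF-hand calcium-binding loops. A CPK carries the calcium-binding domain and the kinase domain in 1 chain, so it can act on its own. A CBL sensor has no kinase activity and works by recruiting a CIPK, releasing the kinase from its own inhibitory NAF segment. The best-known pair, CBL4 and CIPK24, is the rice counterpart of the Arabidopsis SOS3 and SOS2 proteins, which activate the plasma membrane sodium exporter SOS1. CML proteins resemble calmodulin and have no catalytic domain. All of these proteins are also controlled after translation, so a transcript level is not a measure of kinase activity.

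RNA was taken from leaves of 2-week-old seedlings of the rice cultivar Zhonghua 11. Transgenic seedlings carried OsPDCD5 in antisense, the gene's name standing for programmed cell death, and the controls were nontransgenic. Both genotypes were grown on half-strength Murashige and Skoog medium at 28 °C with 14 h of light and 10 h of dark. Leaves were sampled before treatment, and 20 min and 3 h after seedlings were moved to dishes of the same medium with 200 mM NaCl. A group was 1 Affymetrix array, 6 in all, made from 10 plants, so a salt change rested on 2 pairs of arrays, 1 per genotype, and a genotype difference on 3 pairs, 1 per stage. The promoter of the construct and the number of transgenic lines are not given in the sources used here, and OsPDCD5 itself was not analysed here. No group was moved without NaCl or kept untreated to the later times, so a salt change also holds the move and the time of day. In leaf RNA, fewer cells of a type and less RNA per cell cannot be told apart.

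Values are MAS5 signals, a background-corrected brightness per probe set, and log2 changes of the signal plus 16. The model was fitted over the 28629 probe sets whose mean log2 value was at least 5.53, and a change is said to be called where its limma p-value, adjusted over all of them, was under 0.05. Its SE comes from how far single arrays depart from an additive pattern of genotype and stage, not from replicate samples. For each probe set limma draws this spread toward the one usual at its brightness over all probe sets. The medians of all rice probe sets were 4.94 to 5.28 per array on the log2 scale, and pairs of arrays correlated at 0.902 to 0.972 across probe sets, which are not independent replicates. The leaf marker probe sets for the chlorophyll-binding gene CAB2R and rubisco activase rca gave signals of 27103 to 42348 and 38392 to 51221. Of 7 root marker genes with a probe set, Lsi2 stayed at 1.0 to 1.53 and Lsi1 lay at 537 to 1101, and 3 were tested. Of the seed markers, the storage gene GLUA1 stayed at 1.0 to 9.65, while GLUA2 lay at 1407 to 1976 and RAG2 at 69.2 to 132. Of the 7 leaf markers, 6 had signals of at least 2024 on every array, and CHLI was dim at 92.8 to 179. The root list also held HAK5 at 15809 to 22909, and its summed signal was 16826 to 23858. Of the 3 tested root markers none was called in any comparison. The 4 seed markers had a summed signal of 1892 to 7123. Of the 3 tested, Emp1 rose at 3 h (2.2) and was lower in transgenic leaves (-1.78).

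Of the 74 members, 67 passed the filter: 16 CPK, all 7 CBL, 22 CIPK and 22 CML genes. None of the 67 had a signal below 16 on any array. The other 7, CIPK20, CIPK30, CML32, CPK2, CPK6, CPK22 and CPK29, had a highest signal of 52.8 and were not tested. Just below the filter stood CIPK20 (mean log2 5.48), CML32 (5.28) and CIPK30 (4.80), and just above it CML17 (5.76), CPK21 (5.86) and CBL5 (5.86). The signals of CPK2 lay between 1.01 and 11.3 and those of CPK29 between 1.0 and 8.38. CIPK14 and CIPK15 are near-identical copies, and CIPK15 has no probe set of its own here, so the CIPK14 signal may hold both. Among the brightest members of their families, CML16 had signals of 7869 to 10332, CML29 of 7127 to 8048 and CBL6 of 2811 to 3957, and none of the 3 was called. In all, 28 tested members were called in at least 1 of the 4 comparisons and 39 in none.

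The 20 min comparison asks which members had changed soon after seedlings entered NaCl. The kinase genes CPK4 and CPK20 rose in both genotypes, and no tested member was called lower. CPK4 (LOC4328155), a kinase gene whose overexpression is known to raise salt and drought tolerance in rice, had signals of 1548 before, 4881 at 20 min and 1844 at 3 h in nontransgenic leaves. In transgenic leaves the signals were 1012, 5744 and 833. The 2 arrays from 20 min stood above the other 4 without overlap, and the 3 h signal was above that from before treatment in nontransgenic and below it in transgenic leaves. Its change at 20 min was 2.07 ± 0.30 (log2 change ± SE, adjusted p = 0.0395), and 1.65 and 2.49 in the nontransgenic and the transgenic pair.

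CPK20 (LOC4343644) had signals of 3649, 7450.0 and 2851 in nontransgenic leaves before, at 20 min and at 3 h. The transgenic signals were 2574, 6823 and 2012. Again both 20 min arrays lay above all others, and in each genotype the 3 h array was the lowest. The change at 20 min was 1.21 ± 0.14 (adjusted p = 0.0233).

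**Figure D1:**
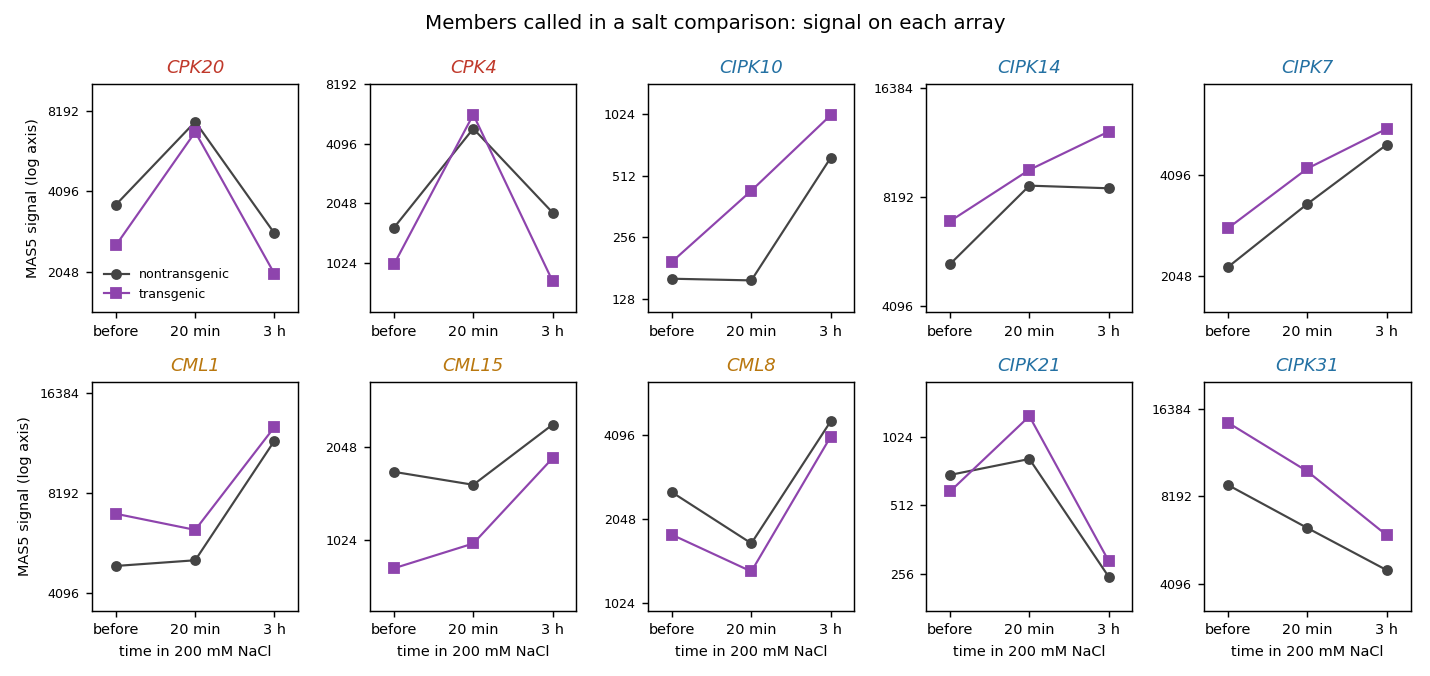
MAS5 signal on a log axis (vertical) against time in NaCl for the 10 members called in the 20 min or the 3 h comparison, 1 point per array, with circles for nontransgenic and squares for transgenic leaves. CPK4 and CPK20 peak at 20 min in both genotypes, the 6 members that rose by 3 h are highest there in transgenic leaves, and CIPK21 and CIPK31 are lowest there in both genotypes.

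Of the 67 tested members, 2 were called (2.99%), against 0.947% of all probe sets (0.789% higher and 0.157% lower). An unadjusted limma p under 0.05 was found for 17 of the 67, and for 3422 of all 28629 probe sets. Both called members belonged to the 16 CPK genes. That family had a median change of 0.34, with 0.01 for all probe sets. Of the 16, 10 were higher in both genotypes (62.5%, against 31.9% of all probe sets) and 1, CPK8 at -0.36, was lower in both. CPK3 (0.68, adjusted p = 0.168), CPK1 (0.55, 0.138), CPK19 (0.48, 0.142) and CPK13 (0.46, 0.317) were among those 10 without a call. Overexpression of CPK13 and of CPK12 is known to raise salt tolerance in rice, and CPK12 stood at 0.33 (adjusted p = 0.676).

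Under limma no CBL gene passed at 20 min, where 2 of 7 had an unadjusted p under 0.05. CBL4 (LOC4339432), the rice SOS3 counterpart, had signals of 894, 2369 and 715 in nontransgenic and 1754, 3052 and 840.1 in transgenic leaves. Both 20 min arrays stood above the other 4, and the transgenic signal before treatment was higher than the nontransgenic one. Its change was 1.09 ± 0.20 (adjusted p = 0.0777). CBL9, whose Arabidopsis namesake acts at the plasma membrane, went the other way with -0.98 ± 0.24 (adjusted p = 0.152), and its signal was 659.9 and 625 before and 312 and 324 at 20 min. A second CBL9 probe set gave -0.17. On the first probe set CBL9 was called lower at the same -0.98 with the arrays of before and 20 min alone (adjusted p = 0.0378). The fits without either 3 h array repeat this estimate from the same arrays. It was also called at -1.09 with poly-A scaling (0.0182), that is, with arrays scaled to spike-in RNAs added before labelling. With the arrays of before and 20 min alone, CBL4 (1.09), CML20 (1.23), CML10 (0.88) and CIPK7 (0.60) were newly called higher too. CBL4 (0.98) and CML20 (1.11) were also called higher with poly-A scaling, and CML10 (0.88) after quantile normalization.

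The CIPK genes had a median of -0.09 at 20 min, and none of 22 was called by limma (5 at an unadjusted p under 0.05). The value of CIPK24, the rice SOS2 counterpart, was -0.19 ± 0.13. Among the 22 CML genes none was called either, 3 having an unadjusted p under 0.05, with a median of 0.02. CML20 had the largest CML value at 1.23 ± 0.25 (adjusted p = 0.103), with signals of 367 and 303 before and 903 and 715 at 20 min in nontransgenic and transgenic leaves. CML5, a dim member with signals of 31.6 to 73.0, was at 0.61 ± 0.35 (adjusted p = 0.564), and CML30 at 0.52 ± 0.23 (0.439), from 0.04 in nontransgenic leaves and a signal of 3003 that was 6025 at 20 min in transgenic ones. CML10 had 7133 and 7182 before and 12745 and 13558 at 20 min, a change of 0.88 ± 0.14 (adjusted p = 0.0580). CPK4, CPK20 and CML20 were at least 2-fold higher in both pairs of arrays, 4.48% of members against 1.49% of probe sets, although CML20 was not called.

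The 2 fits that leave out a 3 h array give the same changes at 20 min, from the same arrays. The count at 20 min depended on single arrays. It was 0 without either array from before treatment or without the transgenic 20 min array, with 15 to 18 members at an unadjusted p under 0.05, and it was 7 and 6 without the nontransgenic and the transgenic 3 h array. The values of CPK4 without the nontransgenic array from before, the transgenic one and the transgenic 20 min array were 2.15, 1.99 and 1.51 (adjusted p = 0.163, 0.178 and 0.0559), and those of CPK20 were 1.31, 1.12 and 1.03 (0.0977, 0.133 and 0.113).

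The 3 h comparison asks which members differed after longer exposure. The kinase genes CIPK10, CIPK7 and CIPK14 and the calmodulin-like genes CML1, CML8 and CML15 rose, while the kinase genes CIPK21 and CIPK31 fell. CIPK10 (LOC4332786) had signals of 161, 158 and 626 in nontransgenic leaves before, at 20 min and at 3 h. In transgenic leaves they were 195, 433 and 1011. Both 3 h arrays stood above all others, and at 20 min the transgenic signal was already higher while the nontransgenic one was not. Its change at 3 h was 2.07 ± 0.28 (adjusted p = 0.0125), and its other 3 probe sets gave 0.92, 1.92 and 1.5 (adjusted p = 0.280, 0.00945 and 0.0249).

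CIPK7 (LOC4333514) had signals of 2176, 3354 and 5034 in nontransgenic and 2840.0, 4275 and 5615 in transgenic leaves. Both 3 h values lay above all others, and each genotype was higher at each later stage. It rose by 1.09 ± 0.12 (adjusted p = 0.00741), while a second and dimmer CIPK7 probe set gave 0.02. CIPK14, which with its copy CIPK15 is known from rice responses to microbial elicitors, rose by 0.76 ± 0.13 (adjusted p = 0.0269). Its signals were 5347, 8793 and 8647 in nontransgenic and 7020.3, 9721 and 12390.1 in transgenic leaves, and here the nontransgenic 20 min and 3 h arrays hardly differed.

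Signals of CML1 (LOC4327351) were 4934, 5133 and 11787 in nontransgenic and 7091, 6339.7 and 12969 in transgenic leaves. Those of CML8 were 2555, 1674 and 4598, and 1797, 1326 and 4049.8. In both genes the 3 h arrays stood clear of the other 4, with rises of 1.06 ± 0.13 (adjusted p = 0.00965) and 1.0 ± 0.13 (adjusted p = 0.0119). CML15 rose by 0.84 ± 0.18 with an adjusted p of 0.0497. Its 3 h signals were 2417 and 1882 against 1700.3 and 829 before, and both lay above the other 4 arrays.

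CIPK31 (LOC4332665), a kinase gene studied for rice germination under stress, had signals of 8965, 6382 and 4573 in nontransgenic leaves. The transgenic ones were 14685, 9993 and 6029.6. The signal was lower at each later stage in both genotypes, and the 2 arrays from 3 h were the lowest of all 6. It fell by 1.13 ± 0.13 (adjusted p = 0.00741), and a second, dimmer probe set gave -0.77 (adjusted p = 0.164). CIPK21, whose Arabidopsis namesake acts with CBL2 and CBL3 at the vacuole under salt, had signals of 696, 818 and 248 in nontransgenic and 589, 1262 and 291 in transgenic leaves. Both 3 h values were far below the other 4, and its change was -1.20 ± 0.23 (adjusted p = 0.0336).

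**Figure D2:**
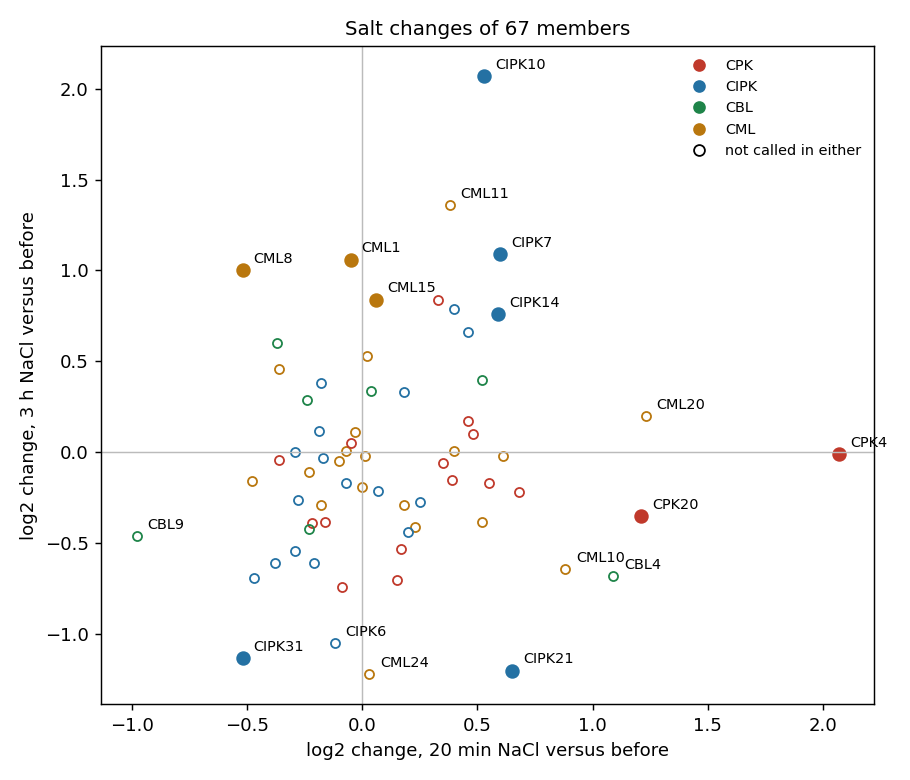
Log2 change at 20 min (horizontal) against log2 change at 3 h (vertical), both versus before treatment, for the 67 tested members, with filled points for the 10 called in either comparison. Both axes share the arrays from before treatment; CPK4 lies at 2.07 and -0.01, CIPK10 at 0.53 and 2.07, and CIPK21 at 0.65 and -1.20.

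At 3 h, 8 of 67 members were called (11.9%, 6 higher and 2 lower). Of all probe sets 6.01% were (3.44% higher and 2.58% lower). An unadjusted limma p under 0.05 was found for 29 of the 67, and for 6327 of all 28629 probe sets. No CPK and no CBL gene was called by limma, with 5 of 16 and 4 of 7 at an unadjusted p under 0.05. CPK9, known in rice for drought tolerance and spikelet fertility, had the lowest CPK value at -0.74 (adjusted p = 0.0676), and CPK12 the highest at 0.84 (0.119). CPK5 stood at -0.70 (0.143), with 737 and 655 before and 324 and 547 at 3 h, and CPK7 at -0.53 (0.222). CBL10, whose Arabidopsis namesake takes part in shoot salt tolerance, stood at 0.60 (adjusted p = 0.116) and CBL4 at -0.68 (0.107). CIPK24 gave 0.12 ± 0.13, and CIPK23, which activates the potassium channel AKT1 in rice, -0.21 ± 0.13. CML11 (1.36 ± 0.32, adjusted p = 0.0623) and CML24 (-1.22 ± 0.40, adjusted p = 0.145) had larger values than the called CML genes, with larger errors. CIPK10 and CML11 were at least 2-fold higher in both pairs (2.99% of members, against 2.26% of probe sets), the latter without a call.

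The 3 h count was 3 if the nontransgenic array from before treatment was left out, 2 if the transgenic one was, and 14 if the nontransgenic 3 h array was. That count of 14 held 6 higher and 8 lower, so the balance turned, with CIPK5, CIPK6, CIPK8, CIPK18, CML10, CML24 and CPK7 newly called lower. Among left-out arrays, CIPK10 lost its call for the transgenic one from before only (1.69, adjusted p = 0.0777), as did CIPK31 (-1.03, 0.0598) and CML8 (0.88, 0.0933). CIPK7 (1.03, 0.0504) and CML1 (0.91, 0.0566) lost theirs for the nontransgenic one only. CIPK21, CIPK14 and CML15 lost theirs for 4, 3 and 5 of the 6 arrays, with values of -1.53 to -0.88, 0.63 to 0.88 and 0.57 to 1.10. The split of 6 higher and 2 lower became 6 and 5 when arrays were scaled to the hybridisation spike-ins, RNAs added at hybridisation, and 5 and 4 when scaled to the poly-A spike-ins, RNAs added before labelling, an alternative chosen after seeing the data. At 20 min the latter scaling gave 4 higher and 1 lower.

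The 3 h arrays were also set against those from 20 min, to ask which members differed between the 2 times. CPK1, CPK3, CPK4, CPK20, CML10, CML18, CBL4, CIPK21 and CIPK31 fell, and CBL10, CML1, CML8 and CIPK10 rose. This comparison shares its arrays with both others. CPK4 fell by 2.08 ± 0.30 (adjusted p = 0.0116) and CPK20 by 1.57 ± 0.14 (adjusted p = 0.00377). CBL4, which at 20 min had not passed, fell by 1.77 ± 0.20 (adjusted p = 0.00599). Both of its 3 h signals lay below those from before treatment of the same genotype.

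CML10 fell by 1.51 ± 0.14 (adjusted p = 0.00438), with 3 h signals of 5213 and 4044. A second CML10 probe set, with a highest signal of 26.3, gave -0.24, and the mean over both was -1.23 without a call (adjusted p = 0.234). CPK3 had signals of 484, 888 and 455 in nontransgenic and 475, 685 and 367 in transgenic leaves, and fell by 0.91 ± 0.17 (adjusted p = 0.0268). CPK1 fell by 0.72 ± 0.13 (adjusted p = 0.0229), its signals being 6052 and 5031 at 20 min and 3503 and 3180.4 at 3 h. For these 3 genes the 20 min array was the highest of each genotype, as for CPK4, CPK20 and CBL4.

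CIPK21 fell by 1.86 ± 0.23 (adjusted p = 0.00739), more than from before treatment, since its 20 min signals were the highest of each genotype. CML18 and CIPK31 fell by 0.64 ± 0.14 and 0.60 ± 0.13 (adjusted p = 0.0408 and 0.0363). CML8 rose by 1.52 ± 0.13 (adjusted p = 0.00344), from 20 min signals that were the lowest of each genotype. CML1 rose by 1.11 ± 0.13 and CIPK10 by 1.54 ± 0.28 (adjusted p = 0.00701 and 0.0249). CBL10 (LOC4325933), with signals of 1572, 1148 and 2837 in nontransgenic and 2039, 1667 and 2608 in transgenic leaves, rose by 0.97 ± 0.18 (adjusted p = 0.0259). Its 20 min array was the lowest and its 3 h array the highest in each genotype.

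Between 20 min and 3 h, 13 of 67 members were called (19.4%), against 8.67% of all probe sets. Of these, 4 were higher and 9 lower, where 4.45% and 4.23% of probe sets were. CBL3 (0.53, adjusted p = 0.0541), CPK5 (-0.85, 0.0756) and CPK7 (-0.70, 0.105) were among those without a call. Of the 16 CPK genes, 4 were called lower and none higher, 12 were lower in both genotypes (75%, against 35.5% of all probe sets), and the median was -0.47. Leaving out any 1 array kept the calls of CPK4, CPK20, CBL4, CIPK21, CML1, CML8 and CML10, 7 of the 13. The split of 4 higher and 9 lower became 7 and 9 after quantile normalization and 6 and 7 when scaled to the poly-A spike-ins. CIPK10 lost this call without the nontransgenic 20 min array (1.09, adjusted p = 0.0932), the nontransgenic 3 h array (1.47, 0.0602) or the transgenic 3 h array (1.6, 0.0759), and CBL10 without either nontransgenic array of the pair (0.76 and 0.68, 0.137 and 0.0503). CPK1, CPK3 and CIPK31 lost theirs for 3 of the 6 left-out arrays and CML18 for 4, with values of -0.83 to -0.61, -1.01 to -0.80, -0.74 to -0.46 and -0.75 to -0.52.

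The genotype comparison asks which members differed between antisense-OsPDCD5 and control leaves on average over the stages. Whether a difference was alike at each stage was not tested. Among called members, 5 kinase genes of the CIPK family were higher in transgenic leaves, and 5 CML genes, 3 CPK genes and CIPK29 were lower. The stages are not replicates of genotype, and the transgene and any other lasting difference of the 2 seedling sets cannot be told apart. The largest difference was that of CML14 (LOC4339701), with signals of 276, 249 and 191 before, at 20 min and at 3 h in nontransgenic leaves. In transgenic leaves they were 66.0, 54.1 and 61.2. The genotypes did not overlap, and the difference was -1.72 ± 0.22 (log2, transgenic minus nontransgenic, adjusted p = 0.00334).

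CML4 (LOC4334072), whose overexpression is known to raise drought tolerance in rice, had signals of 7413, 4818 and 7731 in nontransgenic leaves. The transgenic ones were 2724, 2557 and 4946, so the genotypes overlapped across stages, but the transgenic array was lower at each stage. The difference was -1.0 ± 0.16 (adjusted p = 0.00754), and 2 further probe sets gave -0.85 and -0.93 (adjusted p = 0.0580 and 0.0612). CML27 was at -0.76 ± 0.15 on its brighter probe set (adjusted p = 0.0167). The nontransgenic signals of 5144 to 5469 and the transgenic ones of 2592 to 4365 did not overlap, whereas a dimmer probe set gave -0.17. CML15 and CML31 were at -0.67 ± 0.15 and -0.51 ± 0.13 (adjusted p = 0.0236 and 0.0324). No CML gene was called higher, and the family had a median of -0.26. CML1 was called higher, at 0.41, without the nontransgenic or the transgenic 3 h array (adjusted p = 0.0446 and 0.0462).

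The called CPK genes were CPK18 (-0.72 ± 0.18, adjusted p = 0.0367), CPK8 (-0.56 ± 0.13, 0.0265) and CPK24 (-0.44 ± 0.12, 0.0410), which is known for cold tolerance in rice. CPK18, which phosphorylates the kinase MPK5 in rice, had signals of 1454, 1022 and 831 in nontransgenic and 614, 703 and 628 in transgenic leaves. The groups did not overlap, and the gap was widest before treatment. A second CPK18 probe set gave -0.55 (adjusted p = 0.293). CPK4 and CPK20 differed by -0.50 and -0.38 between the genotypes (adjusted p = 0.198 and 0.0650), and CPK7 by 0.56 (0.0707).

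Of the CIPK genes, CIPK11 (LOC107275263) had signals of 187, 131 and 216 in nontransgenic and 538, 505 and 321 in transgenic leaves. The groups did not overlap, and the difference was 1.27 ± 0.26 (adjusted p = 0.0180). The Arabidopsis kinase of the same name inhibits the plasma membrane proton pump. CIPK25 was at 0.78 ± 0.15 (adjusted p = 0.0152), with signals of 2911, 2517 and 1674 against 5411, 3239.9 and 3579.9. Here too every transgenic array lay above every nontransgenic one.

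CIPK31, which fell in NaCl, was higher in transgenic leaves by 0.58 ± 0.10 (adjusted p = 0.0107). CIPK8, whose Arabidopsis namesake is known from nitrate signalling, and CIPK1, which works in abscisic acid responses in Arabidopsis, were at 0.54 ± 0.10 and 0.47 ± 0.10 (adjusted p = 0.0140 and 0.0176). CIPK1 had nontransgenic signals of 15711 to 18626 and, without overlap, transgenic ones of 22809 to 25681. CIPK29 was the CIPK gene called lower, at -0.80 ± 0.20 (adjusted p = 0.0345), with 515, 337 and 384 against 204, 205 and 274. CIPK23 was not called on its chosen probe set (0.22, adjusted p = 0.194). A second, dimmer CIPK23 probe set gave 0.78 (adjusted p = 0.0186), and the mean over both was called at 0.50 (adjusted p = 0.0268). In all, 13 of 22 CIPK genes were higher in transgenic leaves at all 3 stages (59.1%, against 27.2% of all probe sets), and 9 of 22 CML genes were lower at all 3 (40.9%, against 27.7%).

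**Figure D3:**
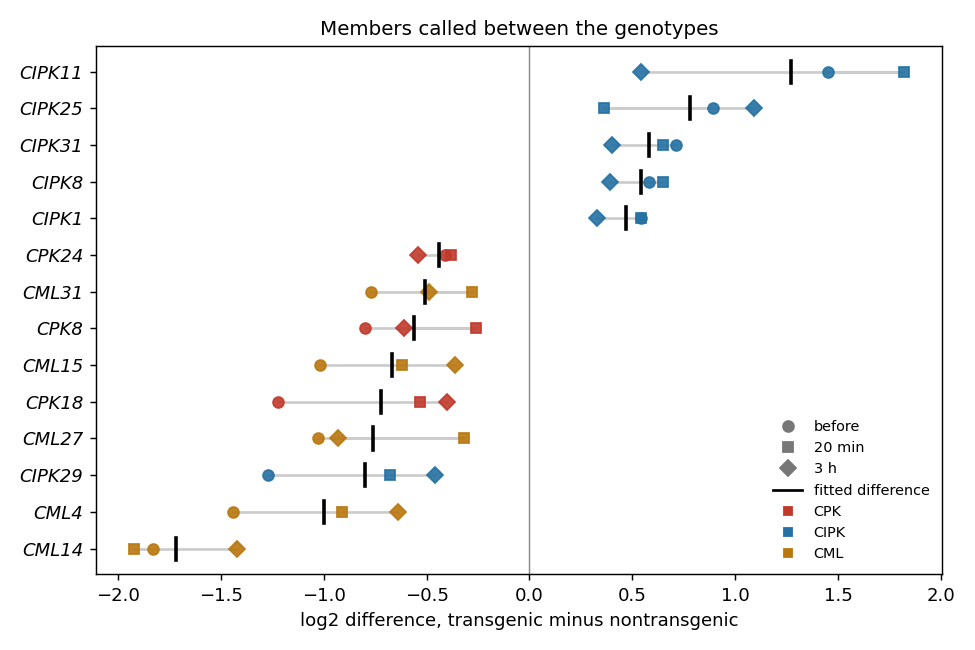
Log2 difference between transgenic and nontransgenic leaves (horizontal) at each stage for the 14 members called between the genotypes, with a symbol per stage, a black bar for the fitted difference and a colour per family. All 3 stages lie on the same side of 0 for each member, and the 5 members above 0 are CIPK genes.

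Between the genotypes 14 of 67 members were called (20.9%, 5 higher and 9 lower). This was near the 20.6% of all probe sets (9.94% higher and 10.6% lower). An unadjusted limma p under 0.05 was found for 31 of the 67, and for 9873 of all 28629 probe sets. No CBL gene was called by limma, with 2 of 7 at an unadjusted p under 0.05. The CBL value largest in size was CBL4 at 0.52 (adjusted p = 0.0696). The direction of a genotype difference depended on how arrays were scaled. The poly-A spike-ins had a mean log2 signal of 7.55 to 7.95 on nontransgenic and 8.20 to 8.33 on transgenic arrays, and scaling to them moved the median of all probe sets to -0.51. The split of 5 higher and 9 lower then became 1 and 27, and it was 5 and 16 when scaled to the hybridisation spike-ins. The median of the CIPK genes was 0.29 as reported and -0.27 with poly-A scaling, which was 0.24 above all probe sets, and that of the CML genes went from -0.26 to -0.74, or -0.23 relative to all. Scaling moves all probe sets of an array by the same amount, so values relative to all probe sets return nearly to those reported. That all 14 called members kept their sign relative to that shift was thus fixed by the method and is no separate support. With poly-A scaling itself, CIPK11 alone kept a call as higher (0.74, adjusted p = 0.0159).

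The count of 14 was 3 and 2 without the nontransgenic and the transgenic array from before treatment, and 8 without either 20 min array. It was 20 without either 3 h array, with 13 higher and 7 lower, so the balance turned. For genotype, leaving out either array of a stage gives the same estimate, so these fits hold 1 estimate per stage left out. Without a 3 h array it rests on the arrays of before and 20 min. Newly called higher there were CIPK5, CIPK6, CIPK16, CIPK18, CML1, CPK7, CBL4 and CBL10, and CML7 was newly called lower. CML14 and CML4 were called without any 1 of the 6 arrays, at -1.88 to -1.63 and -1.17 to -0.78. CIPK11 was not called without either array from before (1.18) or either 20 min array (1.0). CPK24 lost its call without any 1 of the 6 arrays (-0.47 to -0.39, adjusted p = 0.0944 to 0.146). The other members also lost calls for 2 or 4 arrays. Their values over the left-out arrays were 0.63 to 0.99 for CIPK25, 0.52 to 0.68 for CIPK31, 0.49 to 0.61 for CIPK8, 0.43 to 0.54 for CIPK1 and -0.98 to -0.57 for CIPK29. They were -0.98 to -0.63 for CML27, -0.82 to -0.49 for CML15, -0.63 to -0.39 for CML31, -0.88 to -0.46 for CPK18 and -0.71 to -0.44 for CPK8. Between the genotypes, 4 of 7 leaf marker genes, CHLH, CHLD, PORB and rbcS, were also called higher (0.45, 0.76, 0.75 and 0.56), where 9.94% of all probe sets were. CAB2R (0.25), rca (0.10) and CHLI (0.18) were not called. The summed signal of the list was 81961 to 123564 over the arrays. In the salt comparisons PORB rose at 3 h (0.79), and CHLH and rbcS fell between 20 min and 3 h (-0.55 and -0.64). Their part in the changes of the members was not tested.

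Whether a member responded to NaCl differently in the 2 genotypes can be given as values only, since these differences use up all the degrees of freedom and no test was possible. At 20 min, 1 of 67 members differed by at least 1 on the log2 scale (1.49%, against 9.81% of all probe sets). This was CIPK10, whose change was -0.02 in nontransgenic and 1.09 in transgenic leaves. At 3 h, 7 members did (10.4%, against 12.6% of all probe sets). The response of 6 was lower in transgenic leaves, against 7.20% of probe sets, and that of CIPK2 was higher, against 5.40%.

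CIPK18 (LOC4338445) had signals of 489, 553 and 681 in nontransgenic leaves before, at 20 min and at 3 h. In transgenic leaves they were 1528, 1787 and 594. The transgenic signals were thus well above the nontransgenic ones at the first 2 stages and level with them at 3 h, so that the 3 h change was 0.47 in one genotype and -1.34 in the other. CIPK6, whose Arabidopsis namesake acts with CBL4 on the potassium channel AKT2, gave 395, 464 and 342 against 1213, 878 and 312. Its 3 h change was -0.20 in nontransgenic and -1.90 in transgenic leaves.

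CIPK16, whose Arabidopsis namesake is linked to sodium exclusion, had signals of 118, 240.3 and 325 in nontransgenic and 420.4, 417 and 412 in transgenic leaves. The transgenic signal was already at its 3 h level before treatment, and the 3 h changes were 1.35 and -0.03. CPK23 stood at 84.7 and 201 before treatment and at 99.0 and 94.5 at 3 h, a difference of -1.17 between the responses. CIPK5 stood at 9426 and 15339 before and at 8906 and 6912 at 3 h, a difference of -1.07. In these 5 kinase genes the transgenic array from before treatment was above the nontransgenic one, by 0.70 to 1.71 on the log2 scale, and at 3 h the genotypes differed by -0.36 to 0.33. The response difference is the genotype difference at 3 h minus that before, so such a gap partly follows from how these genes were picked. CBL5, picked by the same rule, differed by 0.21 before and by -1.43 at 3 h. Each of these values rests on 1 array per genotype.

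CBL5 (LOC4325962, for which the reference table also lists the name CBL2) was dim, with 27.7, 52.9 and 85.8 in nontransgenic and 34.5, 49.9 and 21.8 in transgenic leaves. The offset of 16 weighs on its changes of 1.22 and -0.42 at 3 h. CIPK2 had signals of 1054, 906 and 532 in nontransgenic and 594, 979.7 and 803 in transgenic leaves, with 3 h changes of -0.96 and 0.43. Its other 2 probe sets gave differences between the responses of -0.39 and 0.38 where the chosen one gave 1.39, so the probe sets of this gene did not agree. The probe set giving 0.38 was brighter than the chosen one, with signals of 3115 to 5324, and was passed over because its name ends in x_at. It was called lower between 20 min and 3 h (-0.70, adjusted p = 0.0294).

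**Figure D4:**
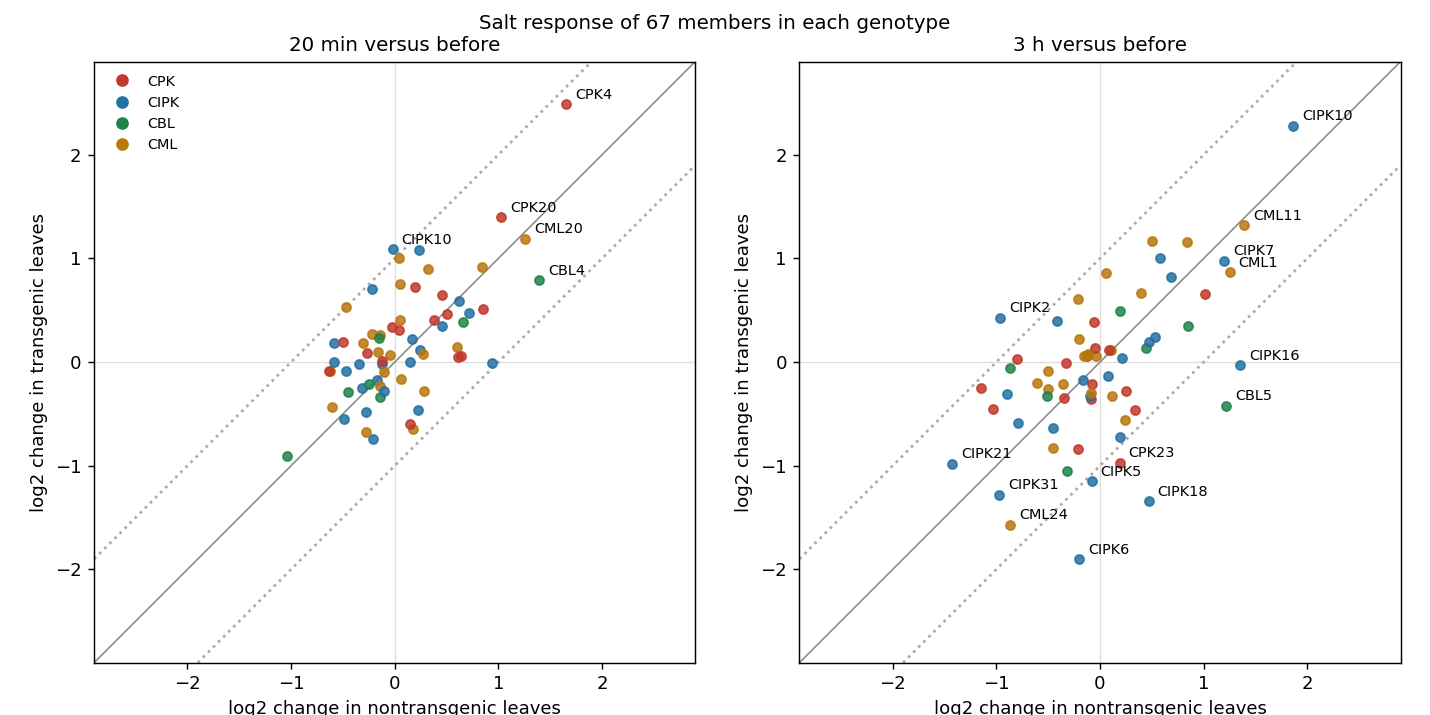
Log2 change versus before treatment in nontransgenic (horizontal) and transgenic leaves (vertical) for the 67 tested members, at 20 min on the left and 3 h on the right; the solid line marks equal changes and dotted lines a difference of 1. At 3 h, CIPK18, CIPK6, CBL5, CIPK16, CPK23 and CIPK5 lie below the lower dotted line and CIPK2 above the upper one.

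Other genes of calcium signalling and its targets were counted beside the members. The 3 calmodulin genes CAM1, CAM2 and CAM3 were not called in any of the 4 comparisons, with medians of -0.16, 0.07, 0.06 and -0.26 in the order given above. Of 10 tested calcium transport genes, none was called in a salt comparison. Between the genotypes the vacuolar exchanger gene CAX1a (0.54) and the glutamate receptor-like channel gene GLR3.1 (0.67) were higher and the exchanger gene CAX3 (-0.61) was lower. CCAMK, the calcium and calmodulin kinase gene of root symbiosis, was not called.

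Of 19 tested genes for sodium and potassium transport, AKT1, an inward potassium channel regulated by CBL1 and CIPK23 in rice, rose by 1.15 ± 0.22 at 3 h (adjusted p = 0.0328). Its signals were 323, 695 and 791 in nontransgenic and 328, 420.5 and 699 in transgenic leaves, lowest before treatment in both. The potassium transporter genes HAK10 and HAK17 rose between 20 min and 3 h by 0.95 and 1.21. Between the genotypes HAK11 was higher (0.74), and HAK16, HAK1 and HAK12 were lower (-0.60, -0.77 and -0.82). The NADPH oxidase gene rbohB, of a family that CPK proteins can phosphorylate, rose by 1.59 ± 0.27 at 3 h (adjusted p = 0.0241), its signals being 490.1 and 535 before and 1158 and 2135 at 3 h.

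Among 10 SnRK2 kinase genes, which serve abscisic acid and osmotic stress signalling without calcium, SAPK2 rose by 1.15 ± 0.16 at 20 min (adjusted p = 0.0363) and fell by 0.99 by 3 h. Its signals of 2615, 4921 and 2451, and 1576, 4136 and 2091 in transgenic leaves, were highest at 20 min, as for CPK4 and CPK20. SAPK6 rose by 1.12 at 3 h and SAPK1 by 1.12 between 20 min and 3 h. Between the genotypes SAPK9 was higher (1.07) and SAPK3 and SAPK6 were lower (-0.92 and -0.67). The lists of calmodulin-binding factors and guard cell markers matched no gene with a probe set.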

How the data were processed

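The labels' protocols describe total RNA from leaves of 10 plants per group, labelled with biotin by a 3-prime kit, on 6 arrays, 1 per group. The authors deposited 1 log2 signal for each probe set and array. The submitters' processing notes name MAS5 as the tool. Its version and scaling target are not given in the sources used here. As checked on the values, the mean of the linear signal without 2% of probe sets at each end was 497.5 to 497.7 on every array. The table held 57258 rice and 123 control probe sets, and 22436 had 1 gene in the platform annotation. Names came from the RefSeq gene table of the rice assembly ASM3414082v1, in which all 22436 gene identifiers were found.

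Signals were made linear, 16 was added and log2 was taken. Probe sets below the median mean (5.53) were left out, and limma 3.58.1 in R 4.3.3 fitted genotype and stage additively (lmFit, eBayes with an intensity trend, 2 residual and 4.52 prior degrees of freedom, median residual SD 0.20), with Benjamini-Hochberg adjustment over 28629 probe sets at 0.05. One probe set stood for each gene, that with the highest mean log2, with those ending in x_at last. The chosen probe set ended in x_at for 3 members, among them CBL9 and CIPK16, which had none of another kind. Named are every called member, the 4 largest changes of each family and comparison with 1 sign in every pair, the 3 brightest of each family, for each direction the 5 members whose responses differed most between genotypes, members with known roles and up to 3 called genes of each list. The members and lists were chosen with earlier results of these data known. Alternatives changed the offset, filter, scaling, variance trend, arrays and probe sets.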

Additional observations from a re-analysis of the deposited data

Results flagged for a closer look

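The responses of 5 members ran in opposite directions in the 2 genotypes, by at least 0.40 on the log2 scale in each. With 1 array per group, these differences were not tested, and the share of all probe sets that met the same rule was not counted. At 20 min the transgenic minus nontransgenic response of CML24 was 0.99, from -0.47 in nontransgenic and 0.53 in transgenic leaves, with signals of 266 and 188 against 159.7 and 237. At 3 h it was -1.64 for CBL5 (1.22 and -0.42), -1.81 for CIPK18 (0.47 and -1.34), 0.81 for CIPK29 (-0.41 and 0.40) and 1.39 for CIPK2 (-0.96 and 0.43). The other 2 probe sets of CIPK2 gave -0.39 and 0.38 for this difference at 3 h. CIPK29 and CIPK2 are neighbouring genes in the reference table.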

How the results depend on the processing

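The fit itself pairs arrays by genotype and by stage; a further replicate block could not be fitted, because each group was 1 array. Of 37 called changes, 18 kept their call under each alternative run for them other than leaving out an array or dropping the variance trend of limma. The 75th percentile filter removed CIPK10, CIPK11, CIPK29 and CML14, so it was not run for 5 changes. The differences that reversed were CIPK1 (-0.09) and CIPK8 (-0.02) between the genotypes with poly-A scaling, where the median of all probe sets was -0.51. That scaling moved it by -0.10 at 20 min, 0.03 at 3 h and 0.11 between the times. Counts of called members were 2 at 20 min, 8 at 3 h, 13 between the times and 14 for genotype. They were 0, 0, 0 and 2 without the variance trend (14, 21 and 28 members with an unadjusted p under 0.05 where none was called). Without the trend, 36 of the 37 called changes lost their call, and only CML14 between the genotypes kept it. The other genotype call there was CML11 (-0.87), which was not among the 14. Nearly all calls reported here thus depended on the variance trend. At 20 min the count was 1 with an offset of 1, with no filter or with the filter at the 75th percentile, 5 with poly-A scaling and 7 with the arrays of before and 20 min alone. With no filter it was 5 at 3 h and 9 for genotype, and poly-A scaling gave 28 for genotype. CPK4 at 20 min lost its call with an offset of 1, no filter or the 75th percentile filter (adjusted p = 0.0518, 0.0682 and 0.0623), without the trend (0.248) and without 3 single arrays (up to 0.178). With the mean over probe sets, CIPK7 at 3 h lost its call (0.0928). Leaving out 1 array gave 0 to 7 called members at 20 min, 2 to 14 at 3 h, 9 to 16 between the times and 2 to 20 for genotype; in these fits the lone array of a stage is assumed to vary like the others. Leaving out either array of a stage gives the same genotype estimate, and the same estimate of the change between the other 2 stages. The cause of these moves was not tested. The number of arrays limits the precision, and the 7 dim members were not tested.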
